A study of Drosophila melanogaster with 4 samples.

Results

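Closely spaced regions of trimethylated histone H3 lysine 36 (H3K36me3) on the autosomal arms 2L, 3L and 3R of Drosophila melanogaster are described here. They were selected on measured values, the width and spacing in the authors' combined list of enriched regions: a region had to be under 10 kb wide and to have another listed region less than 1000 bp away on at least 1 side. The 1 Mb next to the centromere was left out on each arm. This gave 607 regions, of 3981 in the combined list and of 1815 under 10 kb on the 72.5 Mb searched. The other 1208 regions under 10 kb on the same sequence are called isolated below, and 406 regions there were 10 kb or wider.

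The lists come from chromatin immunoprecipitation and sequencing of nuclei from late larvae (the last instar) of the wild-type strain Oregon-R. There are 2 ChIP replicates, made with an H3K36me3 antibody labelled abcam, and 2 inputs, which have no values in the lists. All samples share strain, genotype and stage, the tissue was homogenised larvae, and neither the sex nor the cell types are given. Whether the 2 replicates are different collections of larvae is not stated, and their spread may be that of the procedure alone. Coordinates are those of FlyBase Release 5, per the file headers, and are counted from 1. Each replicate has its own list, of 3785 and 3956 regions, and each region carries a score from the authors whose unit is not given. No read counts were in the lists, so sequencing depth is unknown. Because width and spacing in the combined list chose the regions, and that list may itself rest on both replicates, the values below are descriptions and carry no test.

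In flies H3K36me3 is placed on nucleosomes by the methyltransferase Set2, which travels with elongating RNA polymerase II. The mark therefore lies over the bodies of transcribed genes, typically low at the promoter and higher towards the 3′ end. Genes of the fly genome often lie close together, so marked bodies of neighbouring genes can be parted by short unmarked stretches. No gene models of the release used by the lists were at hand, and no region or gap was assigned to a gene.

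The regions were mostly paired. Chains of neighbours with every gap under 1000 bp, here called runs, numbered 316 and took in all 607 regions together with 107 regions of 10 kb or more. Of the runs, 251 (79.4%) held 2 regions, 50 held 3, 13 held 4 and 2 held 5. A run spanned 13.2 kb in the median, with quartiles of 8.99 and 18.2 kb, a shortest span of 2.44 kb and a longest of 57.4 kb. The median span was 11.5 kb for 2 regions, 17.7 kb for 3, 31.6 kb for 4 and 43.0 kb for 5. Nearly all of a run was covered, with a median of 96.7% of its span and a lowest value of 77.8%. A region of 10 kb or more took part in 102 runs, and 26.4% of all such regions on the searched sequence lay in a run. The other 214 runs were made of smaller regions alone.

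Most of the closely spaced regions stood at the edge of a run: 537 had a close neighbour on 1 side and 70 on both sides. For the 70 inner regions the median width was 4094.5 bp and the median score 1.63, and for the 537 others they were 4454 bp and 1.45. The 3 arms carried these regions at similar density, with 180 on 2L (8.18 per Mb), 212 on 3L (9.00 per Mb) and 215 on 3R (7.99 per Mb). They made up 34.0%, 34.7% and 31.9% of the regions under 10 kb on 2L, 3L and 3R. Runs of 3 or more regions were 15 of 95 on 2L, 26 of 108 on 3L and 24 of 113 on 3R.

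Runs were spread along the arms rather than gathered at one place. Each whole 1 Mb window searched on the 3 arms held the start of at least 1 run, with a median of 4 on 2L, 5 on 3L and 4 on 3R. The window with the most runs was 2L from 10000001 to 11000000, with 13. On 3L it was 20000001 to 21000000, with 10, and on 3R 20000001 to 21000000, with 9.

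The run with the most regions and the widest span among those of 5 lay on 3L from 16567353 to 16610546. In the combined list its regions were 7561, 5579, 24672, 2771 and 1048 bp wide, parted by gaps of 563, 88, 418 and 494 bp. Their scores were 1.35, 2.17, 2.03, 1.31 and 1.08. The first 3 gaps were also present in replicate 1, with 679, 287 and 503 bp, and in replicate 2, with 590, 134 and 411 bp. The last region, from 16609499 to 16610546, was in neither replicate list, and neither held a region under 1301 bp on the searched sequence. The 24672 bp region in the middle was a single region only in the combined list: replicate 1 divided it at 16588530 to 16588658, a gap of 129 bp, and replicate 2 at 16588612 to 16588645, a gap of 34 bp. The run thus had 5 regions in each of the 3 lists, with different divisions.

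The other run of 5, on 3R from 8220552 to 8263449, had the same division in all lists. Its gaps were 398, 995, 138 and 852 bp in the combined list, 431, 1032, 229 and 932 bp in replicate 1, and 435, 1111, 183 and 904 bp for replicate 2. Ordered by width, the gaps came out the same in the 3 lists, and the gap of 995 bp was over the limit of 1000 bp in both replicates. The weakest region of the run, from 8228412 to 8230940, scored 0.812 in the combined list, 0.914 in replicate 1 and 0.702 in replicate 2. Its neighbour from 8231936 to 8251992 scored 2.44, 2.32 and 2.59, so the difference within the run was far larger than that between replicates.

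Of the runs of 4, the longest was divided differently in each list. It spanned 3R from 11142668 to 11200054, or 57.4 kb. A region of 2495 bp with a score of 0.583, from 11166125 to 11168619, lay there between regions of 11757 and 31432 bp, parted from them by 4 and 3 bp. Replicate 1 listed it apart, with gaps of 492 and 124 bp, while in replicate 2 a region of 14241 bp ran across it and its left neighbour. Replicate 1 had 6 regions over the run and replicate 2 had 3.

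**Figure D1:**
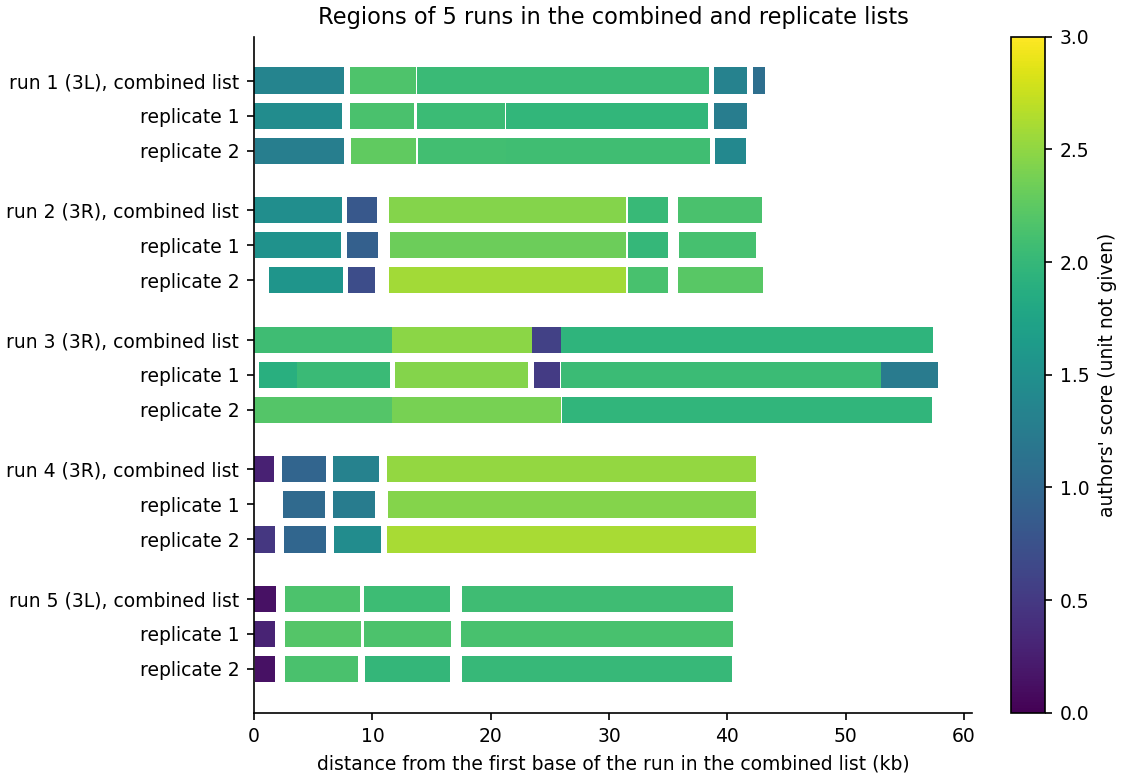
Bars show the regions of the 5 runs with the most regions in the combined list and in both replicate lists, by distance in kb from the first base of the run; colour gives the authors' score. The narrowest gaps, such as those of 4 and 3 bp in run 3, are too thin to see, and the divisions differ most in run 3, with 4, 6 and 3 regions.

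The run on 3R from 20445600 to 20488048 lost its weakest region in replicate 1. That region, from 20445600 to 20447263, scored 0.276 in the combined list and 0.478 in replicate 2. The next 2 regions had scores of 0.969 and 1.31 in the combined list, 1.02 and 1.25 in replicate 1 and 0.984 and 1.45 in replicate 2. By contrast, the run on 3L from 12725973 to 12766452 had 4 regions in each list. Its first region, of 1861 bp, scored 0.135 in the combined list, 0.282 in replicate 1 and 0.132 in replicate 2, so a region with an even lower score was present in all lists.

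Over all runs, the number of regions was the same in replicate 1 as in the combined list in 234 (74.1%) and in replicate 2 in 255 (80.7%). It was the same in both replicates in 212 runs (67.1%). Fewer regions were listed in 58 runs in replicate 1 and in 37 in replicate 2, and more in 24 runs in each. An equal number does not show an equal division, as the first run above shows.

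The gaps that part these regions numbered 395. Of these, 282 lay between 2 of the closely spaced regions and 113 between one of them and a region of 10 kb or more. Gap widths ran from 0 to 997 bp, with a median of 381 bp and quartiles of 155.5 and 674.5 bp. The median was 318.5 bp on 2L, 388 bp on 3L and 425 bp on 3R. Together the gaps made up 167 kb, against 2.87 Mb within the 607 regions.

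Short gaps were common in each list. On the searched sequence the combined list had 67 gaps under 100 bp and 30 from 900 to under 1000 bp. Replicate 1 had 64 and 32, and replicate 2 had 71 and 28. Gaps from 1000 to under 2000 bp numbered 222 in the combined list, 189 in replicate 1 and 232 in replicate 2. The limit of 1000 bp thus lies within a slow decline of gap counts with width, and the combined list had 30 gaps in the 100 bp below it and 30 in the 100 bp above it. All gaps under 1000 bp on the searched sequence were 18.7% of gaps there in the combined list, 18.3% in replicate 1 and 19.2% in replicate 2.

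**Figure D2:**
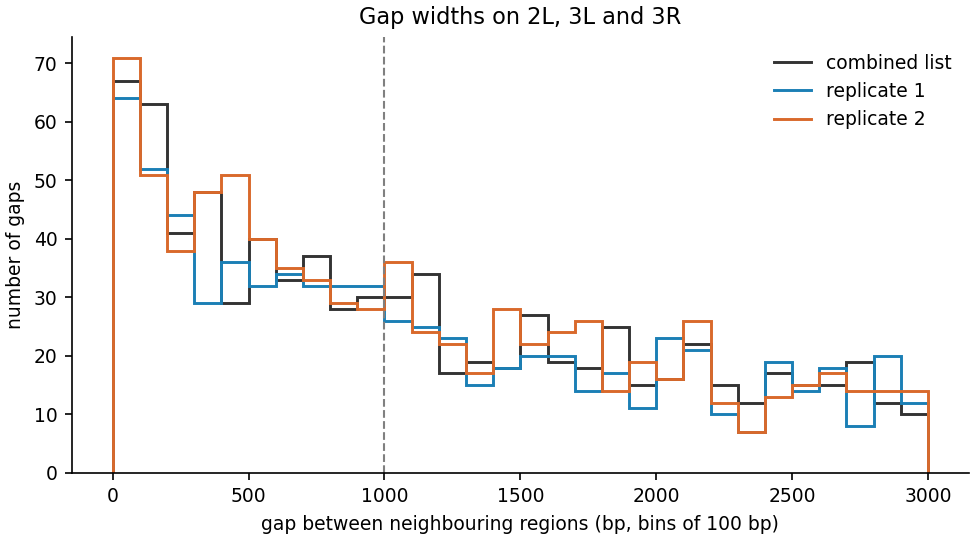
Lines give the number of gaps between neighbouring regions in bins of 100 bp, up to 3000 bp, in the combined list and both replicate lists; the dashed line is the limit of 1000 bp. The first bin is the highest in all 3 lists, with 67, 64 and 71 gaps, and no step is seen at the limit.

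The 3 widest gaps under the limit had 997, 995 and 994 bp. Replicate 1 gave them 1045, 1032 and 1044 bp, and replicate 2 gave 1072, 1111 and 1058 bp. The 3 narrowest beyond the limit had 1002, 1011 and 1011 bp, against 1271, 1171 and 1081 bp in replicate 1 and 1019, 1018 and 1014 bp in replicate 2. All 6 gaps were thus over 1000 bp in both replicates. By width, the 3 regions just under 10 kb had 9979, 9897 and 9889 bp, and the 3 just over it with a close neighbour had 10002, 10004 and 10030 bp.

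Each gap of the combined list was then looked up in the replicate lists. A gap was counted as kept where its 2 flanking regions overlapped different regions of the replicate by at least 1 bp. It was counted as joined where a single replicate region overlapped both flanks, and otherwise 1 or both flanks were missing. Replicate 1 kept 325 gaps (82.3%) and replicate 2 kept 349 (88.4%), a mean of 85.3% ± 4.30 (SD, n = 2). Joining was rare, with 15 gaps (3.80%) in replicate 1 and 11 (2.78%) in replicate 2, a mean of 3.29% ± 0.716 (SD, n = 2). A missing flank was more common: 1 flank was missing at 51 gaps in replicate 1 and 31 in replicate 2, and both flanks at 4 in each.

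Both replicates kept 315 of the 395 gaps (79.7%). Of all 765 gaps under 1000 bp in the whole combined list, beyond the searched sequence too, they kept 77.4%, and these shares are close. A further 44 gaps were kept in 1 replicate, 10 of them in replicate 1 and 34 in replicate 2. The remaining 36 were kept in neither. Of the 25 gaps joined in at least 1 replicate, only that on 3R from 25851309 to 25851318 was joined in both. It was 10 bp wide, between regions with scores of 0.833 and 0.221. Neither replicate had a region over both flanks in full: that of replicate 1 reached 29 bases into the right flank, and replicate 2 listed 2 regions 108 bp apart, the right one reaching 22 bases into the left flank. Of the others, 15 were kept in the other replicate and 9 had a flank missing there.

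Joining was most frequent at the narrowest gaps. Under 100 bp, 11 of 64 gaps (17.2%) were joined in replicate 1 and 6 (9.38%) in replicate 2. From 100 to under 250 bp the numbers were 2 of 77 in each replicate, and from 750 to under 1000 bp none of 71 was joined in either. The median width was 45 bp for the gaps joined in replicate 1 and 64 bp for those in replicate 2, against 388 and 390 bp for the gaps kept there. For gaps with 1 missing flank the medians were 413 and 379 bp.

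Part of this pattern rests on the overlap of 1 bp, by which a replicate region that starts a few bases inside the far flank of a narrow gap counts as joining it. The gap of 3 bp in the longest run above was counted as joined in replicate 1 in this way, although its flanks were listed apart there, with 124 bp between them, since the right-hand replicate region reached 4 bases into the left flank. When each flank was instead assigned to the replicate region that overlapped it most, a choice made after seeing the data, 10 gaps (2.53%) were joined in replicate 1 and 8 (2.03%) in replicate 2. Under 100 bp, 6 of 64 (9.38%) were then joined in replicate 1 and 4 (6.25%) in replicate 2, against 1.21% of the wider gaps in each. In that count 18 gaps were joined in at least 1 replicate and 0 in both. A single replicate region that covered at least 50% of both flanks, also a choice made after seeing the data, was found at 7 gaps in replicate 1 (3 of them under 100 bp) and at 8 in replicate 2 (4 under 100 bp), again with 0 in both. With so few joins, among gaps chosen as divided in the combined list, 0 in both says little about how the replicates differ.

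The narrowest gaps show how such divisions differ. On 3L a region from 20825437 to 20838655 and one from 20838656 to 20840512 were listed apart with no base between them, with scores of 1.48 and 0.290. A single region of replicate 2 ran across both, and replicate 1 lacked the right one. At a gap of 1 bp on 3L at 9727269, a region of replicate 1 covered 41 bases of the left flank and 1302 of the right one, and both flanks, with scores of 0.321 and 0.133, were missing in replicate 2. On 2L a gap of 4 bp from 9540518 to 9540521 lay 7 bp wide a few bases to the right in replicate 1, which counted as joined by 1 bp of overlap, and was 501 bp wide in replicate 2. Of these 3 places, only the first had a single region over most of both flanks.

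**Figure D3:**
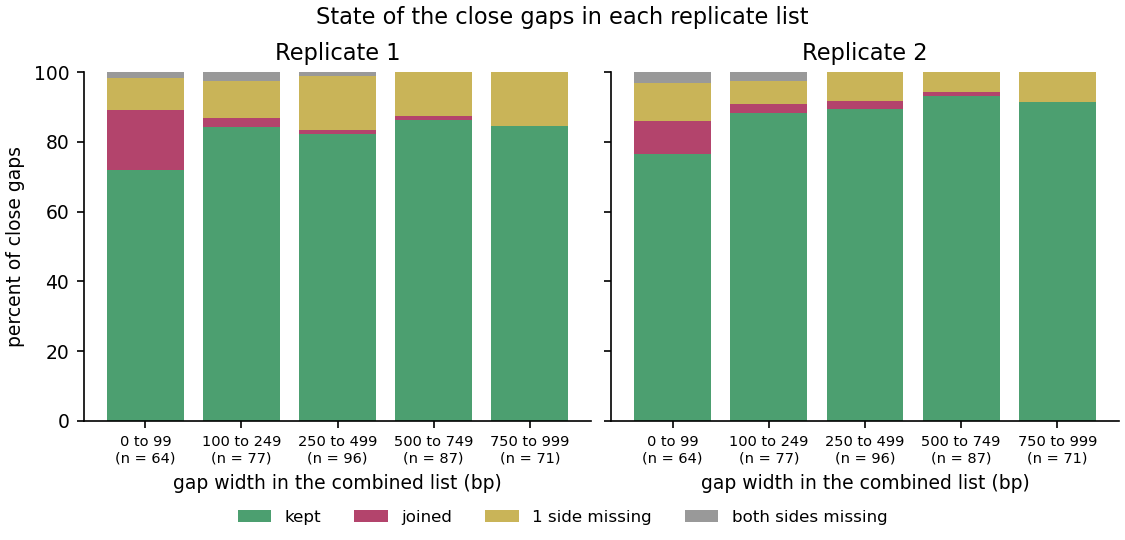
Stacked bars give the percent of close gaps that were kept, were joined by a single region, or had 1 or both flanks missing in each replicate list, by gap width in the combined list in bp (n is the number of gaps). By an overlap of 1 bp the joined share is highest under 100 bp, at 17.2% in replicate 1 and 9.38% in replicate 2, of which some are shifted edges.

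The score of the flanks went with the fate of a gap. Where both flanks were at or above the median score of the combined list, 1.55, both replicates kept 121 of 124 gaps (97.6%). With 1 flank below the median they kept 136 of 171 (79.5%), and with both below it 58 of 100 (58.0%). Gaps with 1 missing flank had a weak side, with a median lower score of 0.303 in replicate 1 and 0.266 in replicate 2. Their higher flank had a median of 1.48 and 1.51, just below the list median. Gaps kept in a replicate had higher values on both sides, with a median lower score of 1.36 in replicate 1 and 1.31 in replicate 2 and a median higher score of 1.99 and 1.96. Weak regions were also narrow, with a Spearman rho of score and width of 0.725 among the closely spaced. The replicate lists held no region under 1301 bp on the searched sequence, against a narrowest of 1001 bp in the combined list. Flank score and flank width were not separated.

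Where both replicates kept a gap, it was usually wider in them than in the combined list. Selection sets part of this. Widths in the combined list were under 1000 bp by the rule, while those in the replicates had no limit. A gap that a replicate closed counted as joined and was left out here. The median of the 315 gaps, 394 bp in the combined list, was 576 bp for replicate 1 and 553 bp for replicate 2. Replicate 1 had the wider gap in 272 (86.3%) and replicate 2 in 274 (87.0%). Both had the wider gap in 231 (73.3%), and no gap was narrower in both replicates than in the combined list. The limit of 1000 bp was reached by 39 of these gaps in replicate 1 and by 41 in replicate 2, and 250 stayed under it in both. The widest measured 2554 bp (replicate 1) and 2256 bp (replicate 2).

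These gaps lay at nearly the same positions in the replicates, which their selection in part sets. A kept gap had to lie between replicate regions that overlapped the same 2 flanks. Gap centres were a median of 56.5 bp apart, with an upper quartile of 113 bp, and the positions overlapped for 314 of 315 gaps. Widths differed by a median of 124 bp, with 154 gaps wider in replicate 1 and 160 wider in replicate 2. Across these gaps the Spearman rho of width between replicates was 0.688. Gaps are not independent replicates and share the same 2 libraries, so no p is given.

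**Figure D4:**
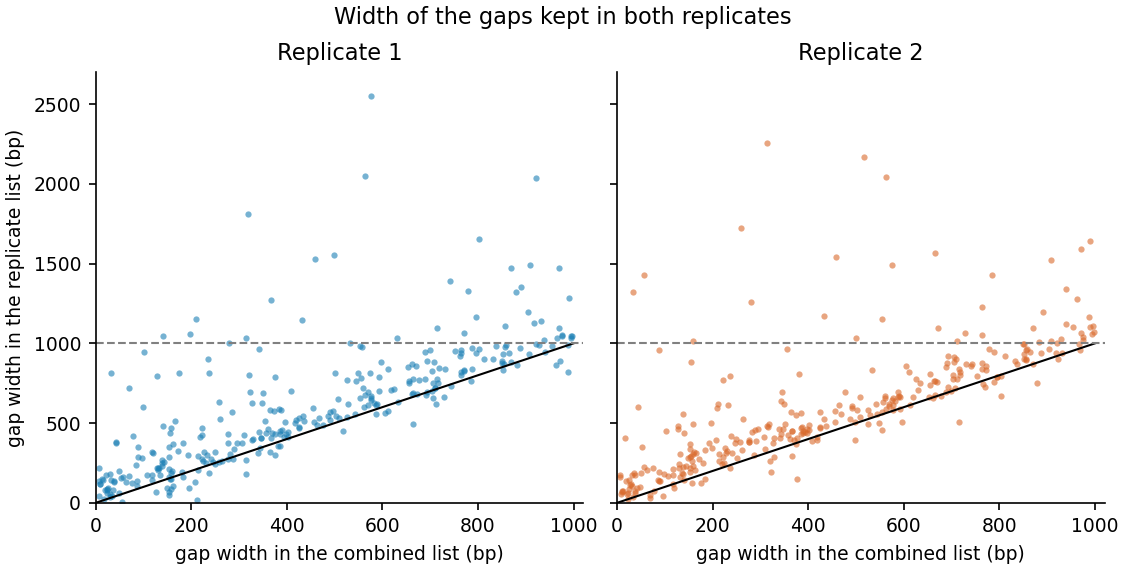
Points are the 315 gaps kept in both replicates, with their width in the combined list (bp) against their width in each replicate list (bp); the solid line marks equal width and the dashed line 1000 bp. Most points lie above the solid line, 272 in replicate 1 and 274 in replicate 2. The rule limits the width in the combined list alone, and joined gaps are not shown.

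Among regions matched 1 to 1, edges facing a gap were placed about as closely as outer edges. The match drops a region whose replicate counterpart reached into the close neighbour, so shifts past the gap were left out. Outer edges had more room to shift, and the comparison is in part set by the match. For the 431 regions with a close neighbour on 1 side that matched 1 to 1 in both replicates, the gap-facing edges of the replicates were a median of 65 bp apart (quartiles 29 and 141 bp). The outer edges were a median of 79 bp apart (quartiles 31 and 179 bp). Differences over 500 bp were found at 5.57% of gap-facing and 7.42% of outer edges. On both sides the replicate edge mostly lay inside that of the combined list, with medians at the gap of 33 bp (replicate 1) and 43 bp (replicate 2) and at the outer edge of 44 and 37 bp.

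The lookup was also made in the other direction, from each replicate list to the combined list. By the same rule, 572 regions of replicate 1 and 621 of replicate 2 were closely spaced, with 374 and 401 gaps beside them. The combined list joined 83 of the gaps of replicate 1 (22.2%) and 94 of those of replicate 2 (23.4%), a mean of 22.8% ± 0.883 (SD, n = 2). These gaps were narrow, with medians of 92 bp (replicate 1) and 112.5 bp (replicate 2), against 507 and 482 bp for those that the combined list kept. Most of them lay inside combined regions of 10 kb or more, 56 of 83 and 54 of 94. The closely spaced regions took 13 and 15, and the isolated ones 14 and 25. Wider regions have more room for a division, and these counts are not per covered base. By most overlap the joined gaps were 76 (20.3%) and 92 (22.9%).

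Gaps that the combined list joined were rarely shared by the replicates. Only 13 overlapped between them, which is 15.7% of those of replicate 1 and 13.8% of those of replicate 2. These gaps were chosen as absent from the combined list, which may rest on both replicates. That choice can itself favour gaps of a single replicate, and the same share was not counted for all close gaps. Of the 13, 12 lay inside combined regions of 10 kb or more and the other inside an isolated region of 6209 bp on 2L. The one widest in replicate 1 lay on 3L between 2599679 and 2600232, a gap of 554 bp, and replicate 2 gave it 492 bp. Both replicates thus divided the combined region from 2591427 to 2602956 there.

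The replicates were also compared directly, without the combined list. Of the 374 gaps of replicate 1, replicate 2 kept 303 (81.0%) and joined 64 (17.1%). Of the 401 gaps of replicate 2, replicate 1 kept 298 (74.3%) and joined 76 (19.0%), and 26 had 1 flank missing. By most overlap the joined gaps were 54 (14.4%) and 65 (16.2%). In a lookup from the combined list, 399 of its 607 closely spaced regions (65.7%) overlapped a region that met the rule in both replicates, and 91 in neither. By replicate the shares were 73.5% and 77.3%. They were 1.82% and 2.24% for isolated regions and 12.8% and 13.1% for those of 10 kb or more. Width and spacing in the combined list had set these classes apart.

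The regions themselves were found in most cases. Of the 607, 551 (90.8%) overlapped replicate 1 and 571 (94.1%) overlapped replicate 2, a mean of 92.4% ± 2.33 (SD, n = 2). Both lists held 542 (89.3%), which is the share among all regions of the combined list, 89.3%. It was 87.7% for isolated regions and 100% for those of 10 kb or more. Replicate 1 alone held 9, replicate 2 alone 29, and neither 27. The median width and score were 1234 bp and 0.293 for those in neither list and 4632 bp and 1.56 for those in both.

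Presence in the lists went with score, and with width too. The narrowest region on the searched sequence had 1001 bp in the combined list, 1301 bp in replicate 1 and 1305 bp in replicate 2. The 27 closely spaced regions in neither list had a median width of 1234 bp, under both replicate values. Score and width were not separated here. At or above the median score of the list, 275 of 276 closely spaced regions were in both replicates, and below it 267 of 331 (80.7%). For isolated regions the numbers were 494 of 495 and 565 of 713 (79.2%). The exception among the closely spaced was 3L from 5112819 to 5115336, which scored 1.68 and lay 19 bp from its left neighbour. In replicate 1 a region over it also took in 149 bases of that neighbour, and replicate 2 had no region over it. The strongest region in neither list was the last of the first run above, with a score of 1.08. At 1048 bp it was narrower than any region of either replicate list on the searched sequence.

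**Figure D5:**
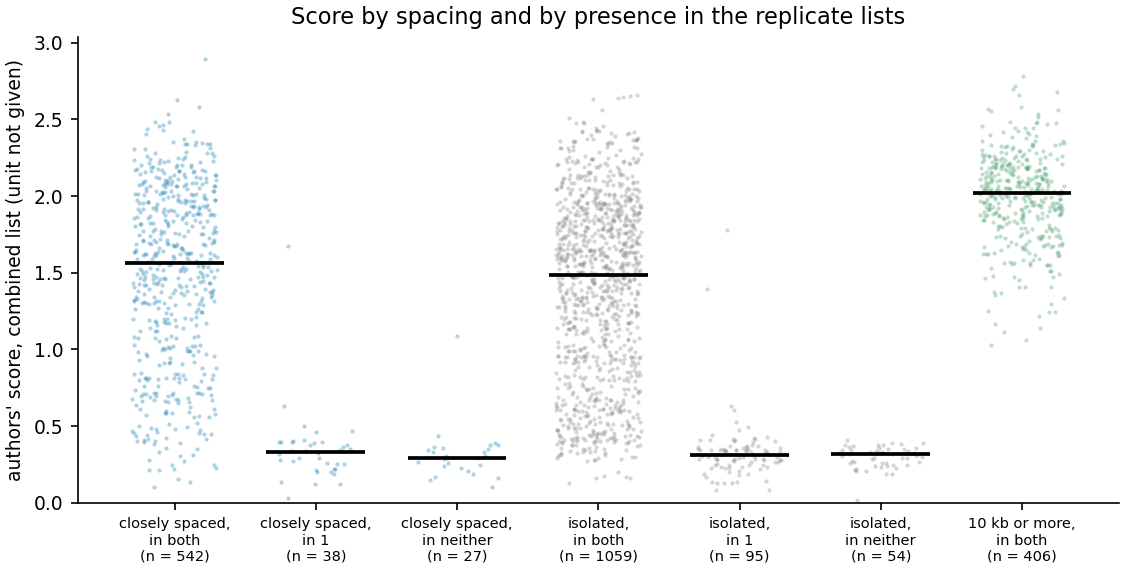
Points are regions of 2L, 3L and 3R with their score in the combined list (unit not given), by spacing and by presence in both, 1 or neither replicate list; black lines are medians. The closely spaced regions found in both have a median of 1.56, those in neither 0.293.

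In width and score the closely spaced regions lay near the isolated ones. Their median width was 4429 bp (quartiles 2901 and 6286 bp) and their median score 1.47 (quartiles 0.795 and 1.92). Isolated regions had 3938.5 bp (quartiles 2644.5 and 5925 bp) and 1.37 (quartiles 0.624 and 1.81). Regions of 10 kb or more had a median score of 2.02. Score rose with width among the closely spaced, with a Spearman rho across regions of 0.725. The rho was 0.781 for isolated regions and 0.301 for those of 10 kb or more. The closely spaced regions held 20.1% of the covered bases of the searched sequence.

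The scores of neighbours were only weakly related. Of the 251 runs of 2 regions, 76 had both scores no lower than the list median, 73 had both below it and 102 had one on each side. The median of the higher score was 1.92 and of the lower 1.18, with a median difference of 0.497. Across the 395 gaps, the scores of the 2 flanks had a Spearman rho of 0.123 and their widths of -0.04. These are weak relations across gaps that share flanks, and the rule left out gaps with regions of 10 kb or more on both sides.

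Matched regions had close values in the replicates. Of the 607, 490 matched 1 to 1 in both replicate lists (80.7%), against 84.6% of isolated regions and 77.3% of those of 10 kb or more. The match used the overlap of 1 bp, so a neighbour's shifted edge can undo it for closely spaced regions. Their score percentile within a list differed by a median of 4.76 points between replicates, against 4.70 for isolated regions. Scores had a Spearman rho of 0.969 between replicates across the matched regions and widths of 0.982. Of the 490, 354 (72.2%) were narrower in both replicates than in the combined list, and for isolated regions this was 69.3%.

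The strongest closely spaced region lay on 3L from 6736676 to 6745448, 159 bp from its right neighbour. It scored 2.90 in the combined list, 2.81 in replicate 1 and 3.00 in replicate 2, and its width was 8773, 8748 and 8728 bp. It was followed by 3R from 10395539 to 10401244, which scored 2.63, 2.63 and 2.64. On 2L the region from 18831076 to 18839752 scored 2.58, 2.59 and 2.60 and lay 23 bp from its left neighbour. The next was 3R:21478165-21484444, with 2.54, 2.45 and 2.67. The last of the 5, 3L:21510037-21516250, scored 2.48, 2.57 and 2.48. The first was highest of the 5 in every list, while the order of the other 4 was not the same in the replicates.

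The 5 widest that matched 1 to 1 all lay on 3L. The widest, from 19795407 to 19805385, measured 9979 bp in the combined list and 9577 and 9958 bp in the replicates. The others began at 7343657, 8979375, 248025 and 20224628 and had 9897, 9879, 9829 and 9769 bp. The one from 248025 to 257853 had a gap of only 7 bp on its right and of 1011 bp on its left. It reached from 248061 to 257814 in replicate 1 and from 248062 to 257759 in replicate 2, so its left edge was placed within 1 bp.

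Few of the regions were divided within themselves. By the overlap of 1 bp, 13 of the 607 overlapped 2 or more regions in replicate 1 and 15 in replicate 2, but some of these were touched only by the shifted edge of a neighbour. Counting a replicate region only where at least 50% of its bases lay inside, a choice made after seeing the data, 9 (1.48%) were divided in replicate 1 and 13 (2.14%) in replicate 2, with 3 in both. By that count the shares were 1.16% and 2.07% for isolated regions, close to those of the closely spaced, and 13.1% and 14.5% for regions of 10 kb or more. By the overlap of 1 bp, a region that shared its replicate counterpart with a neighbour was found 29 times in replicate 1 and 18 times in replicate 2, with 3 in both.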

How the data were processed

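The authors deposited 3 GFF3 lists, 1 for either ChIP replicate and 1 combined, which give the first and last base and a score of every enriched region. The submitters' processing notes name Bowtie 0.12.7. The unit of the score, the region caller with its thresholds, and how the combined list came about are not given in the sources used here. These choices decide where a dip in signal becomes a gap, so gap widths and divisions depend on them. Without counts in the lists, depth is unknown, and counting intervals were left out.

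A gap is the number of bases between neighbouring regions. Overlap of at least 1 bp counted as found, and a 1 to 1 match needed a single partner in each direction. Rule, runs and gap states were tested on simulated pairs of regions under 10 kb on 2L. Wider regions, longer runs and the arm ends left out were not simulated. Alternatives changed the gap limit (500 and 2000 bp), the width limit, the score filter and the overlap, and left out each replicate; alternatives on how far a region must overlap to join a gap or divide a region were added after seeing the data. The combined list may rest on both replicates, so no test was made, and 2 replicates allow no exact test that reaches 0.05. The members and lists were chosen with earlier results of these data known. Named regions follow a fixed rule: the 5 runs with the most regions (2 of 5 regions, then the 3 longest in span of the 13 tied at 4), 5 widest matched and 5 highest-scored members, 5 narrowest gaps, and 3 on each side of a limit; 3L from 5112819, 3R from 25851309, 3L from 2599679 and the windows were named after their values were seen. The gene table at hand is of Release 6 and was not used. Python 3.11.15, numpy 2.4.6 and pandas 2.3.3 were used.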

Additional observations from a re-analysis of the deposited data

How the results depend on the processing

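Of 36 alternative values for 9 results, 22 stayed within the limits set, 14 moved and 0 reversed. The limits were 1.5 times for counts, 1 SD between replicates for percentages, and the 95% order-statistic interval of 344 to 425 bp for the median gap. Counts, widths and percentages have no sign, so none could reverse. The 22 include the percentages with either replicate left out, which could not leave the limit of 1 SD. A gap limit of 500 bp left 374 members, 206 runs and a median gap of 185 bp, and 369.5 members on average in the replicate lists; a limit of 2000 bp gave a median gap of 686 bp. These follow from the limit itself. A width limit of 5000 bp left 364 members. Keeping regions at or above the median score left 178 members and 108 runs. The share of gaps joined was 5.06% with the limit of 500 bp, 2.26% with 2000 bp and 1.21% where both flanks reached the median score. When no base of the combined gap was allowed to be covered, an alternative added after seeing the data, 56.6% of gaps were kept on average, so the share kept rests on allowing edges to shift. With each flank assigned to the region that overlaps it most, also added after seeing the data, 2.28% of gaps were joined on average, and 1.90% where the joining region had to cover 50% of each flank, since shifted edges then no longer count. Leaving out either replicate gave 82.3% to 88.4% of gaps kept, 2.78% to 3.80% joined, 90.8% to 94.1% of members found and 572 to 621 members by the rule in 1 list. With 2 replicates, either value always lies within 1 SD of their mean, so for the percentages this was no check of stability. No paired analysis was possible because the lists hold ChIP regions only, and the same-numbered inputs give no value to pair with them. Depth is unknown, so what it limits was not tested.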
